A study of Mus musculus with 9 samples.

Results

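Collagen chain genes encode the alpha chains of the collagens, the main structural proteins of the extracellular matrix. They were taken as every gene whose mouse symbol consists of Col, a type number, the letter a and a chain number, and this gave 44 of the 53465 genes in the count files. By class, 11 of the 44 encode fibrillar chains, 6 encode the type IV chains of basement membranes, 9 encode fibril-associated collagens with interrupted helices (FACIT), and 18 encode chains of other types. A filter on low counts kept 32 of the 44 for testing. The other 12 had between 0 and 14 reads in every library and are given by their counts only.

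RNA was sequenced from 9 heart samples of NOD-SCID mice, an immunodeficient strain, and by the labels all samples are from the infarct border zone. The sham group (3 libraries) had sham surgery, the ligation group (3 libraries) had a coronary artery ligated, and the group called cells here (3 libraries) had the same ligation plus an implant of FOXO3-GE-MPCs. Titles and treatment fields gave these groups; for replicates 2 and 3 of the cells group the source field instead names FOXO4 and FOXO5. Age, sex, time after surgery and the expansion of GE-MPCs are not given in the sources used here, and no label says that the libraries of a group came from separate animals, so p-values measure only the spread between these libraries, which may be technical.

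Alpha chains wind around one another into helical trimers, some from a single kind of chain and some from several. Fibrillar trimers such as types I and III line up into the banded fibrils that carry tension, FACIT collagens sit on the surface of those fibrils, and type IV trimers form the sheet-like network of basement membranes. In the heart, type I and type III collagen come mainly from fibroblasts, basement membranes surround cardiomyocytes and capillaries, and a collagen-rich scar replaces muscle lost to infarction.

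Libraries held 4549268 to 7515052 reads assigned to genes, and a count of 3 reads equalled 0.375 to 0.639 CPM (counts per 1000000 reads, with library sizes scaled by the trimmed mean of M-values, TMM). The chains that mark the label were present in every library, with Col1a1 at 238 to 615 CPM, Col3a1 at 466 to 1261 CPM and Col4a1 at 721 to 873 CPM. Heart muscle was the main tissue by its markers: 6 cardiomyocyte genes summed to 33153 to 45893 CPM.

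Collagen reads made up a larger part of the ligation and cells libraries than of the sham libraries. The share of gene reads from the 44 collagen genes was 0.287% ± 0.0107 in the sham group, 0.561% ± 0.0308 in the ligation group and 0.498% ± 0.00832 in the cells group (SD, n = 3 each). Every ligation and cells library lay above the highest sham share of 0.298%, and the highest cells share, 0.506%, lay below the lowest ligation share, 0.530%. The shares are sums over the gene set and were not tested.

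In ligation against sham, 23 of the 32 tested collagen genes rose, 1 fell and 8 did not pass the test (edgeR quasi-likelihood test, Benjamini-Hochberg adjusted p under 0.05). Over all 13825 genes tested, 20.1% rose and 18.0% fell. The median log2 fold change was 0.77 over the 32 collagen genes and 0.01 over all genes tested. Of the collagen genes, 12 rose by a log2 fold change of at least 1, against 4.89% of all genes tested. Both counts include Col11a1, Col6a5 and Col8a2, which passed the filter through the ligation and cells libraries, where they were high, and not through sham. By class, 7 of 9 fibrillar genes, 5 of 6 type IV genes, 3 of 4 FACIT genes and 8 of 13 other genes rose, with class medians of 1.18, 0.55, 1.43 and 0.52 on the log2 scale.

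**Figure D1:**
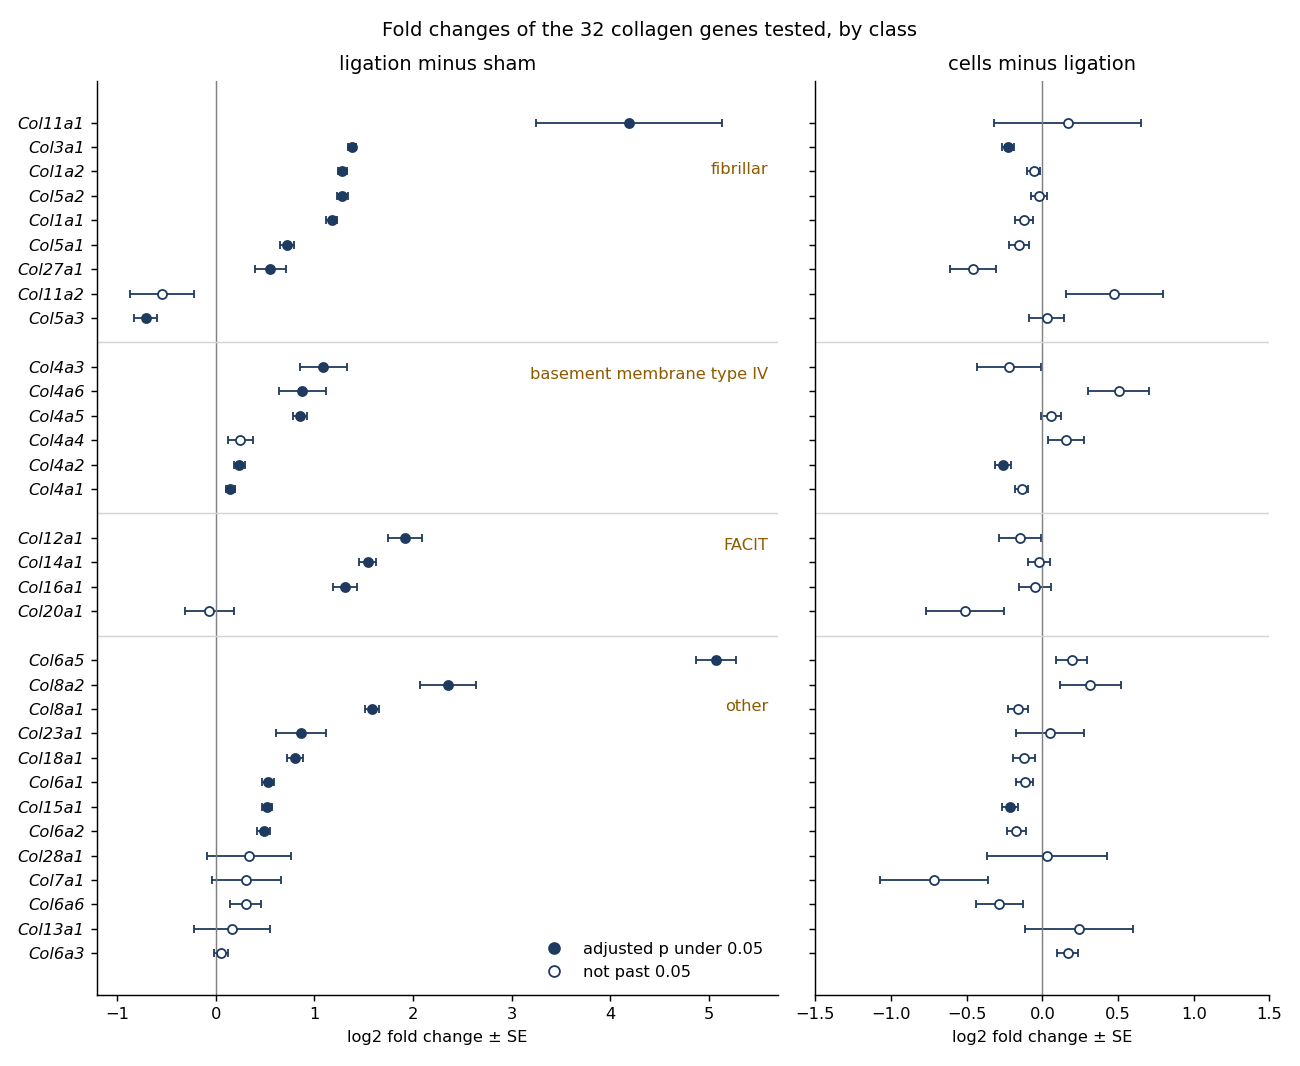
Log2 fold change of the 32 tested collagen genes (rows, grouped by class) with the standard error of the fit as bars, for ligation minus sham on the left and cells minus ligation on the right. Filled points passed an adjusted p of 0.05. On the left 23 filled points lie above 0 and Col5a3 alone lies below; on the right the filled points are Col3a1, Col4a2 and Col15a1, all below 0 and none beyond -0.3.

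The promoter windows of 4 genes are shown because these genes mark the ends of the pattern. Col3a1 was the most abundant chain after ligation, and Col6a5 had the largest rise among the tested collagen genes. Col8a1 rose 3-fold from a moderate level, and Col5a3 fell. Each is the 250 bases before the RefSeq start on the gene's own strand in build GRCm38.p6, from chr1:45311288-45311537 (plus strand, Col3a1), chr9:105960644-105960893 (minus strand, Col6a5), chr16:57754738-57754987 (minus strand, Col8a1) and chr9:20815068-20815317 (minus strand, Col5a3). Capitals mark matches, on either strand, to the TATA box letters TATAAA, the CCAAT box letters CCAAT and the GC box letters GGGCGG.
Col3a1: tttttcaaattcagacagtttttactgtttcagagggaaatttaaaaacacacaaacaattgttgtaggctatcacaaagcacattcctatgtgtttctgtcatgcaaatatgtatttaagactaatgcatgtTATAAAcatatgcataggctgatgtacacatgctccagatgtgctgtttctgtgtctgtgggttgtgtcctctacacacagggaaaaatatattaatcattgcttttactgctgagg
Col6a5: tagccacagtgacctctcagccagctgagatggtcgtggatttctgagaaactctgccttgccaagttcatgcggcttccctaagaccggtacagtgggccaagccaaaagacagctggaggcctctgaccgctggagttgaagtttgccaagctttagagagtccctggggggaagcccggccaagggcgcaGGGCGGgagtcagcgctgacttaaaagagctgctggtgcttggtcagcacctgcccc
Col8a1: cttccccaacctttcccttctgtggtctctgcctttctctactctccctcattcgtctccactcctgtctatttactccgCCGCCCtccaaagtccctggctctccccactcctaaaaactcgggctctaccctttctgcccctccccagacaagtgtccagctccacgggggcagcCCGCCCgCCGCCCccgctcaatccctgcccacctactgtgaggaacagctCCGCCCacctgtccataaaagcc
Col5a3: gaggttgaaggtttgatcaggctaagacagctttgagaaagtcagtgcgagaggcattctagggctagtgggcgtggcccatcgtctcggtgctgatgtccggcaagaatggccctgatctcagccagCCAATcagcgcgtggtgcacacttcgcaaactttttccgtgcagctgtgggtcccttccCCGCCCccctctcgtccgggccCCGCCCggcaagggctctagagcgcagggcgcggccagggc
The Col3a1 window held a TATA box match that began 117 bases before the start and no GC box match. Col6a5 held 1 GC box match, Col8a1 held 4 GC box matches, and Col5a3 held 1 CCAAT box match and 2 GC box matches. RefSeq windows were found for 35 of the 44 genes (38 windows), and Col1a1 and Col5a2 were among the genes with none. A TATA box match stood in 13.2% of the collagen windows and in 12.4% of 32851 windows of all genes, a CCAAT box match in 34.2% and 33.8%, and a GC box match in 57.9% and 32.7%. The letters TGANTCA, an AP-1 site, matched in 2.63% of collagen windows (Col6a1) and in 6.75% of all windows. These matches describe letters in the windows, and no binding was measured.

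The fibrillar genes held the largest part of the gain in collagen reads. Col3a1 (ENSMUSG00000026043, chr1:45311538-45349706), the type III chain, measured 466, 469 and 477 CPM in the sham libraries, 1201, 1220.1 and 1261 CPM in the ligation libraries and 1031, 1054 and 1062 CPM in the cells libraries. The 3 groups did not overlap, with sham lowest and ligation highest. The log2 fold change of ligation over sham was 1.38 ± 0.0385 (SE, adjusted p = 1.74e-16, edgeR), which is 2.61-fold.

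Col1a1 (ENSMUSG00000001506, chr11:94936224-94953042) and Col1a2 (ENSMUSG00000029661, chr6:4504814-4541544) encode the chains of type I collagen. Col1a1 measured 238, 249 and 253 CPM in sham, 509, 547 and 615 CPM in ligation and 511, 492 and 532 CPM in cells. Col1a2 measured 263, 278 and 275 CPM in sham, 645, 666 and 682 CPM in ligation and 628, 653 and 632 CPM in cells. Both were higher in every ligation and cells library than in any sham library, while the ligation and cells libraries overlapped. The log2 fold change of ligation over sham was 1.18 ± 0.0591 for Col1a1 (adjusted p = 2.48e-12) and 1.29 ± 0.0441 for Col1a2 (adjusted p = 4.93e-15, edgeR for both).

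Type V chains are built into type I fibrils and limit their diameter, and the 3 type V genes did not move alike. Col5a2 measured 56.8, 57.3 and 57.0 CPM in sham, 137, 141 and 139 CPM in ligation and 136, 136 and 139 CPM in cells, a log2 fold change of 1.29 ± 0.0585 (adjusted p = 4.92e-13, edgeR). Col5a1 rose by a log2 fold change of 0.72 ± 0.0676 (adjusted p = 3.06e-08, edgeR). Col5a3, the only collagen gene that fell and named for that after its values were seen, measured 31.9, 32 and 33.3 CPM in sham, 16.0, 21.6 and 21.0 CPM in ligation and 20.4, 19.0 and 21.2 CPM in cells. Every sham library was above every other library for Col5a3. Its log2 fold change was -0.71 ± 0.113 for ligation minus sham (adjusted p = 4.05e-05) and -0.68 ± 0.112 for cells minus sham (adjusted p = 5.04e-05, edgeR for both).

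The remaining fibrillar genes were low. Col11a1, a type XI chain best known from cartilage, had 0, 1 and 0 reads in the sham libraries, 10, 5 and 11 reads in ligation and 15, 6 and 11 reads in cells. Scaled for depth, the ratio of its summed ligation counts to sham was 23.9, with a 95% counting interval of 3.92 to 978. It counts among the genes that rose (edgeR on all 9 libraries), but it passed the filter only through the ligation and cells libraries, where it was high, so its calls are no independent support. Col6a5 and Col8a2, described further on, also passed it through those libraries and not through sham. With only sham and 1 other group Col11a1 was left out by the filter and not tested. Col27a1 rose by a log2 fold change of 0.56 ± 0.155 (adjusted p = 0.00703, edgeR), and Col11a2 did not pass (log2 fold change -0.54, adjusted p = 0.207). Col2a1 and Col24a1, left out by the filter, had 0 reads in the sham libraries together, 11 and 7 in the ligation libraries, and 4 and 8 in the cells libraries.

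**Figure D2:**
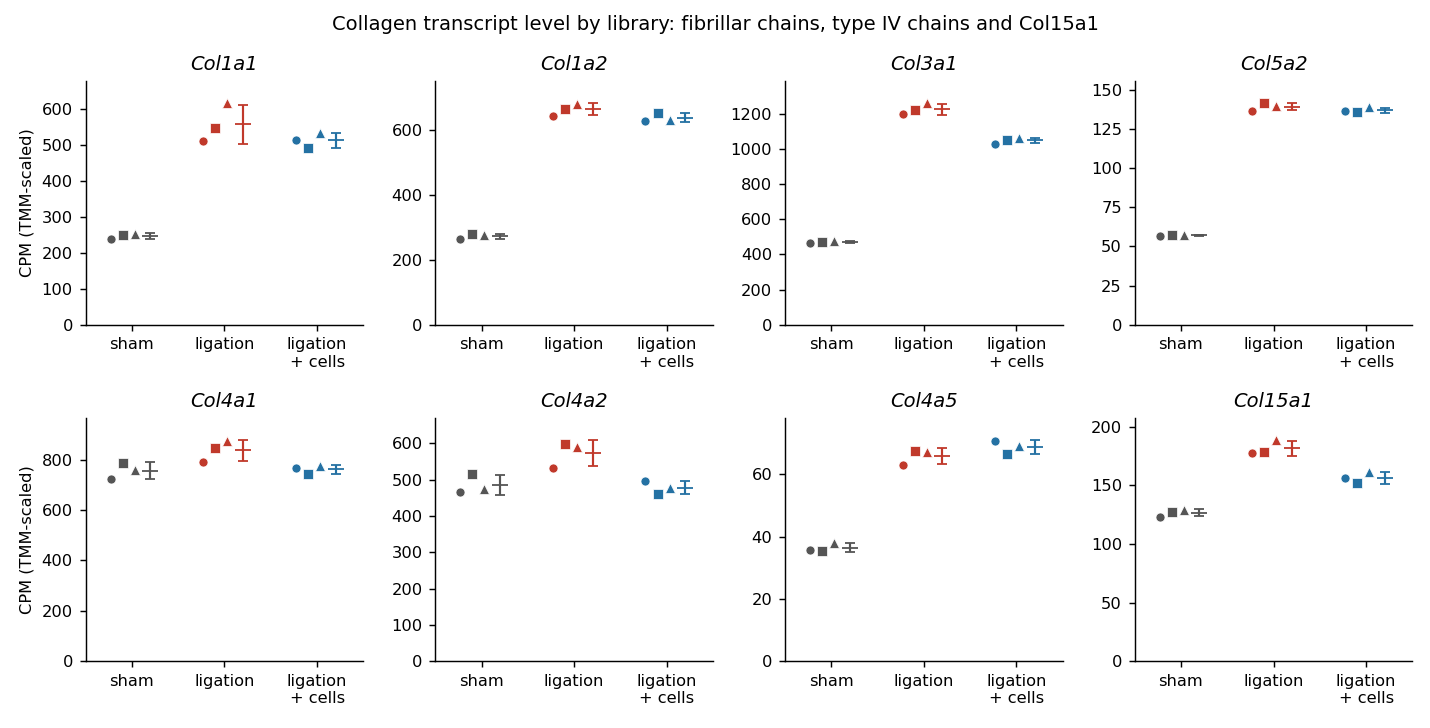
TMM-scaled CPM (vertical axes, each from 0) of 8 collagen genes in the 9 libraries; circles, squares and triangles are replicates 1, 2 and 3, and the bar beside each group is its mean ± SD. Col1a1, Col1a2, Col3a1 and Col5a2 are higher in every ligation and cells library than in any sham library, and Col4a2 in the cells libraries lies in the sham range of 466 to 516 CPM or just below it.

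Of the 6 type IV genes 5 rose after ligation, the abundant Col4a1 and Col4a2 by small steps, and the rarer Col4a4 did not pass. Col4a1 (ENSMUSG00000031502, chr8:11198423-11312826) and Col4a2 (ENSMUSG00000031503, chr8:11312805-11449287) encode the trimer found in nearly all basement membranes. Col4a1 measured 721, 787 and 759 CPM in sham, 792, 845 and 873 CPM in ligation and 765, 742 and 776 CPM in cells. The log2 fold change of ligation over sham was 0.15 ± 0.0450 (adjusted p = 0.0135, edgeR), and the lowest ligation library was just above the highest sham library. This call rested on single libraries: the adjusted p was 0.0809 without sham replicate 1 and 0.128 without ligation replicate 3 (edgeR). Col4a2 measured 466, 516 and 474 CPM in sham, 531, 597 and 591 CPM in ligation and 496, 462 and 477 CPM in cells. Its log2 fold change was 0.24 ± 0.0527 for ligation minus sham (adjusted p = 0.00101, edgeR).

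Chains alpha 3 to alpha 6 of type IV collagen are known from the kidney filter and from other specialised basement membranes. Col4a5 measured 35.8, 35.4 and 38.1 CPM in sham, 62.9, 67.6 and 67.1 CPM in ligation and 70.8, 66.4 and 69.1 CPM in cells, a log2 fold change of 0.86 ± 0.0723 for ligation minus sham (adjusted p = 7.07e-09, edgeR). Col4a6 measured 4.63, 3.79 and 2.86 CPM in sham, 7.88, 6.37 and 6.63 CPM in ligation and 9.93, 8.32 and 11.1 CPM in cells. All ligation and cells libraries were above all sham libraries for both genes. For Col4a6 the log2 fold change was 0.88 for ligation minus sham (adjusted p = 0.00593) and 1.38 for cells minus sham (adjusted p = 4.56e-05, edgeR for both). Col4a3 measured 4.09, 2.97 and 5.87 CPM in sham, 8.52, 9.98 and 9.13 CPM in ligation and 9.50, 6.80 and 7.49 CPM in cells, a log2 fold change of 1.09 ± 0.237 for ligation minus sham (adjusted p = 0.000977, edgeR). Col4a4 did not pass for ligation minus sham (log2 fold change 0.25, adjusted p = 0.126, edgeR).

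These 6 genes lie in 3 head-to-head pairs. Col4a1 and Col4a2 overlap by 22 bases of annotation on chromosome 8, Col4a3 and Col4a4 stand 71 bases apart on chromosome 1, and Col4a5 and Col4a6 stand 1308 bases apart on chromosome X. The log2 fold changes of ligation over sham were 0.15 and 0.24 in the first pair, 1.09 and 0.25 in the second, and 0.86 and 0.88 in the third. Differences between the members of a pair were not tested. Whether the counting used strand is not given in the sources used here, so reads in the overlap of Col4a1 and Col4a2 cannot be assigned with certainty. At most 6.07% of any collagen gene's exon bases lay within another gene, and at most 5.35% of its 31-base words occurred in another gene.

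Of the 9 FACIT genes, 4 were tested and 3 rose. Col12a1, a chain of type XII collagen that binds type I fibrils, measured 3.92, 3.79 and 4.92 CPM in sham, 14.7, 15.2 and 17.8 CPM in ligation and 14.3, 14.0 and 15 CPM in cells. Col14a1, its close relative of type XIV, measured 29.7, 35.1 and 30.3 CPM in sham, 102, 85.1 and 91.4 CPM in ligation and 92.3, 87.4 and 93.5 CPM in cells. Col16a1 measured 23.3, 27.3 and 17.3 CPM in sham, 52.8, 53.5 and 61.1 CPM in ligation and 54.3, 49.5 and 58.8 CPM in cells. For these 3 genes all ligation and cells libraries stood above all sham libraries, and ligation overlapped cells. The log2 fold changes of ligation over sham were 1.92 ± 0.173, 1.54 ± 0.0829 and 1.31 ± 0.120 in that order (adjusted p = 1.93e-08, 7.83e-12 and 2.21e-08, edgeR). Col20a1 did not pass in any comparison. The untested Col9a1, Col9a2, Col9a3, Col19a1 and Col22a1 had 0 to 13 reads in any library.

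The chains of type VI collagen, which forms beaded filaments around cells, showed the widest spread within a type. Col6a5 (ENSMUSG00000091345, chr9:105856078-105960643) had 3, 5 and 8 reads in the sham libraries, or 0.534, 0.824 and 1.27 CPM. It measured 29.8, 28.8 and 32.4 CPM in ligation and 32.3, 36.2 and 35.7 CPM in cells. The lowest ligation or cells library was far above the highest sham library. Its log2 fold change of ligation over sham was 5.07 ± 0.202 (adjusted p = 6.93e-14, edgeR), or 33.5-fold, the largest among the tested collagen genes in the fit of all 9 libraries. Because Col6a5 passed the filter through the ligation and cells libraries and not through sham, its calls against sham are no independent support. Without sham replicate 2, which holds the single sham read of Col11a1, the fitted value of Col11a1 was larger. Per kilobase of transcript Col6a5 moved from place 31 of the 32 tested genes in sham to place 17 in both other groups.

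The neighbours of Col6a5 on chromosome 9 either did not pass or were left out by the filter. Col6a6, 27917 bases away on the same strand, measured 15.8, 13.2 and 11.9 CPM in sham and 16.4, 13.7 and 20 CPM in ligation, with a log2 fold change of 0.31 whose 95% interval ran from -0.02 to 0.64 (adjusted p = 0.135, edgeR). Col6a4, 28810 bases away on the other side, was left out by the filter and had 0 reads in the sham libraries together, 12 in the ligation libraries and 11 in the cells libraries. Other settings called both higher in ligation: Col6a4 with DESeq2 and with no filter on low counts, and Col6a6 with library totals as scaling and without ligation replicate 2. Of the 31-base words of Col6a5, 3.98% also occurred in another gene.

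Col6a1 and Col6a2 encode the common type VI chains. Col6a1 measured 131, 145 and 126 CPM in sham, 195, 195 and 193 CPM in ligation and 187, 171 and 180 CPM in cells. Col6a2 measured 133, 154 and 134 CPM in sham, 184, 195 and 209 CPM in ligation and 176, 170.1 and 176 CPM in cells. For both, no sham library reached the lowest library of the other groups, and the log2 fold changes of ligation over sham were 0.53 ± 0.0598 and 0.49 ± 0.0641 (adjusted p = 4.35e-07 and 3.62e-06, edgeR). Col6a3, whose chain joins these 2 in the usual type VI trimer, had a log2 fold change of 0.06 with a 95% interval of -0.09 to 0.21 (adjusted p = 0.571, edgeR).

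Type VIII collagen, a short-chain network collagen of vessel walls and of the membrane under the corneal endothelium, rose in both of its genes. Col8a1 (ENSMUSG00000068196, chr16:57624258-57754737) measured 43.6, 48.6 and 39.5 CPM in sham, 133, 126 and 135 CPM in ligation and 116, 114 and 123 CPM in cells. Col8a2 measured 3.38, 0.824 and 3.02 CPM in sham, 15.8, 9.84 and 12.1 CPM in ligation and 15.5, 16.2 and 14.4 CPM in cells. All sham libraries were below all others for both genes. The log2 fold changes of ligation over sham were 1.58 ± 0.0738 for Col8a1 (adjusted p = 7.36e-13) and 2.36 ± 0.285 for Col8a2 (adjusted p = 1.18e-06, edgeR for both). The low sham counts of Col8a2 make its fold change less precise.

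**Figure D3:**
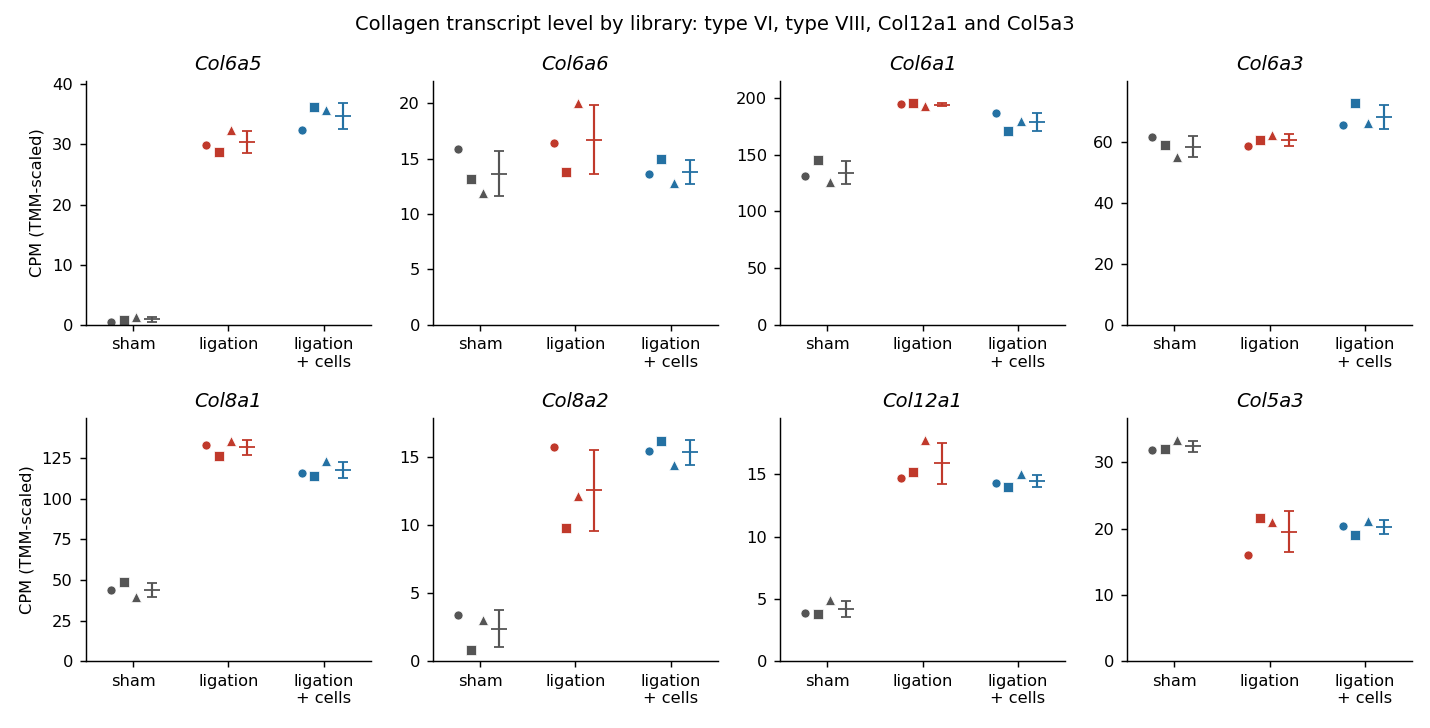
TMM-scaled CPM (vertical axes, each from 0) of 4 type VI genes, both type VIII genes, Col12a1 and Col5a3 in the 9 libraries; symbols are replicates 1 to 3 and bars are mean ± SD. Col6a5 is near 0 in sham and at 28.8 to 36.2 CPM elsewhere, Col6a6 and Col6a3 overlap between sham and ligation, and Col5a3 is highest in sham.

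Among the remaining types, Col15a1 and Col18a1 encode the multiplexins, basement membrane proteins whose ends release restin and endostatin. Col15a1 measured 123, 127 and 129 CPM in sham, 178, 178 and 189 CPM in ligation and 156, 152 and 162 CPM in cells. Its 3 groups did not overlap, and its log2 fold change of ligation over sham was 0.52 ± 0.0551 (adjusted p = 1.87e-07, edgeR). Col18a1 rose by 0.81 ± 0.0800 (adjusted p = 7.44e-08) and the transmembrane chain Col23a1 rose by 0.87 ± 0.253 (adjusted p = 0.00999, edgeR for both). For Col23a1 the adjusted p was 0.0515 with DESeq2. Col7a1, Col13a1 and Col28a1 did not pass. Col10a1, Col17a1, Col25a1 and Col26a1 were not tested, with 0 to 14 reads in any library.

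The balance between classes moved toward fibrillar chains after ligation. Fibrillar genes took 37.8% ± 0.843 of collagen reads in sham, 51.6% ± 0.192 in ligation and 51.5% ± 0.676 in cells (SD, n = 3 each). Type IV genes took 41.8% ± 0.524, 28.2% ± 0.570 and 27.8% ± 0.519 in the same order. FACIT genes took 2.09%, 3.22% and 3.41%, and the other genes 18.3%, 16.9% and 17.3%. Every sham library had more type IV than fibrillar reads, and every other library had the reverse order. Divided by transcript length, type IV still led in sham (44.7% against 31.7%) and fibrillar in ligation (44.3% against 31.5%). With Col3a1 left out of the reads, the fibrillar and type IV shares were 26.7% and 49.2% in sham, 37.2% and 36.6% in ligation and 38.1% and 35.5% in cells. Without that gene the gap between the classes in ligation was small, and ligation replicate 2 had slightly more type IV than fibrillar reads.

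**Figure D4:**
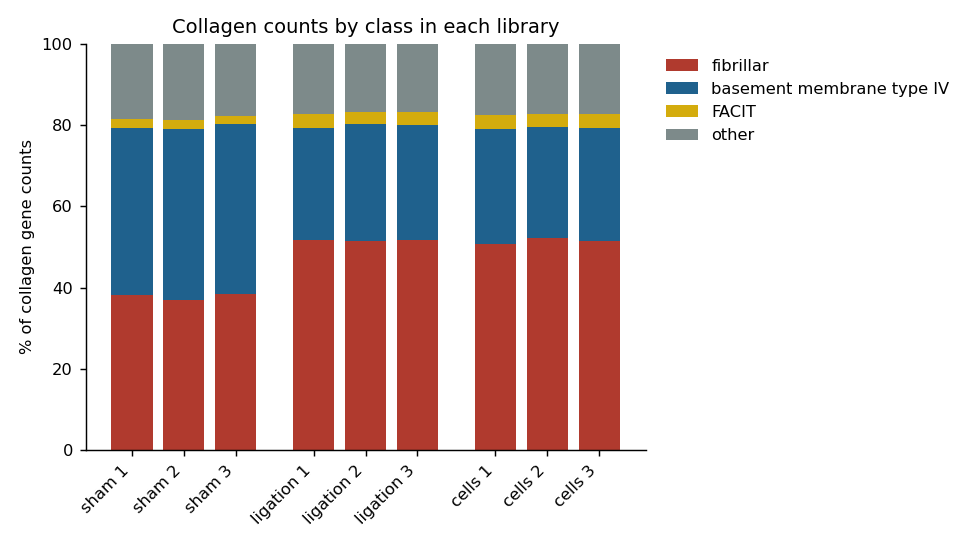
Share of collagen gene reads (vertical axis, %) held by each class in each of the 9 libraries. Fibrillar reads take 36.9% to 38.5% in the sham libraries and 50.8% to 52.2% in the others.

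Single genes showed the same exchange of places. In CPM per kilobase of transcript, Col4a1 was first in sham at 101 ± 4.39, ahead of Col4a2 at 73.3 ± 4.10, Col3a1 at 47.9 ± 0.588 and Col1a1 at 37.6 ± 1.21 (SD, n = 3). After ligation Col3a1 was first at 125 ± 3.13, followed by Col4a1 at 112 ± 5.51, Col4a2 at 86.6 ± 5.52 and Col1a1 at 84.8 ± 8.21. Col4a2 and Col1a1 did not differ beyond their spread in the ligation group. In the cells group Col3a1 stood at 107 ± 1.63 and Col4a1 at 102 ± 2.31, followed by Col1a1 at 78.0 ± 3.09 and Col4a2 at 72.2 ± 2.6.

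Ratios of chains within a library do not depend on library scaling, and 4 were compared in 3 pairs of groups. The read ratio of Col4a1 to Col1a1 was 3.06 ± 0.0816 in sham, 1.51 ± 0.0763 in ligation and 1.49 ± 0.0266 in cells. The difference of ligation minus sham was -1.02 on the log2 scale, with no overlap between the groups (exact two-sided permutation p = 0.1, the smallest that 3 against 3 allows, and 0.171 adjusted over 12 tests). None of the 12 tests could therefore pass 0.05. The ratio of Col3a1 to Col1a1 was 1.91 ± 0.0433, 2.22 ± 0.156 and 2.05 ± 0.0800, and that of Col1a2 to Col1a1 was 1.1 ± 0.0153, 1.2 ± 0.0814 and 1.25 ± 0.0726, in the same order of groups. Col4a2 to Col4a1 was 0.642 ± 0.0165 in sham, 0.685 ± 0.0193 in ligation and 0.628 ± 0.0181 in cells, and for this ratio the ligation libraries stood above all the others.

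**Figure D5:**
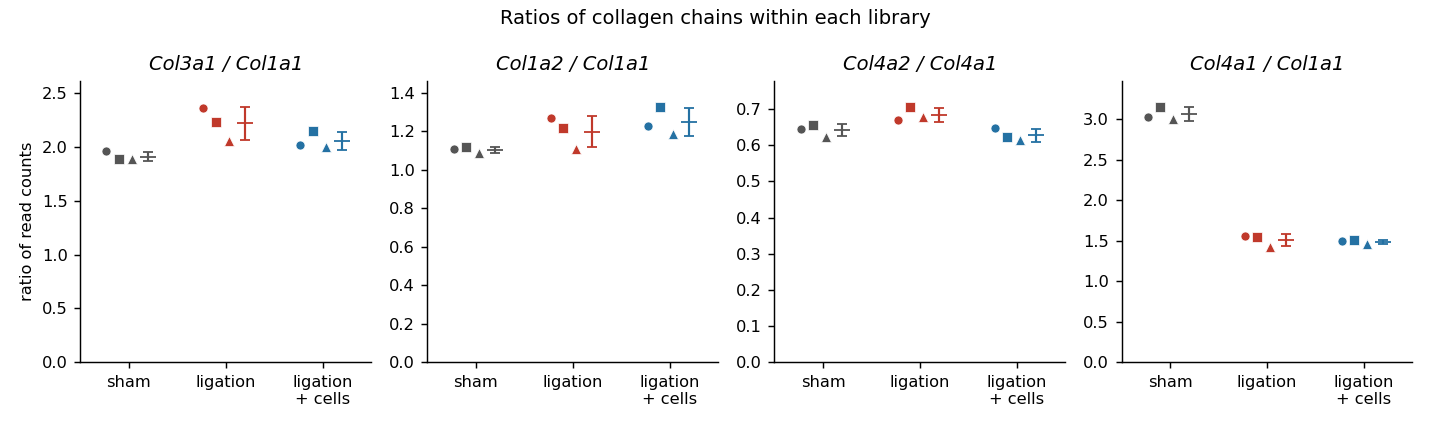
Read-count ratios of 4 chain pairs within each library (vertical axes from 0), with replicates as symbols and mean ± SD as bars. Col4a1 to Col1a1 is 3.0 to 3.16 in sham and 1.42 to 1.56 in the other groups, while the other ratios move by under 0.5.

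Against ligation alone, the cells group showed no collagen gene that rose and 3 that fell (edgeR, adjusted p under 0.05), where 4.19% of all genes tested rose and 5.69% fell. At an unadjusted p under 0.05, 2 collagen genes were higher and 9 lower, and the share of all genes at that threshold is not given here. DESeq2 called 0 collagen genes higher and 4 lower, among 924 genes called in all. With limma-voom 0 were higher and 5 lower, among 1465 genes called in all. The median log2 fold change was -0.09 over the 32 collagen genes and 0.00 over all genes tested. Col3a1 fell by 0.23 on the log2 scale (SE 0.0374, adjusted p = 0.000314), Col4a2 fell by 0.26 (SE 0.0525, adjusted p = 0.00207) and Col15a1 fell by 0.22 (SE 0.0540, adjusted p = 0.0124, edgeR for all). In each of the 3, the cells libraries lay below the ligation libraries without overlap. This was not particular to them. Among genes that did not pass, Col4a1, Col6a1, Col6a2, Col7a1, Col8a1, Col20a1 and Col27a1 also lay lower in cells without overlap. Col4a4, Col4a6 and Col6a3 lay higher without overlap. The share of all genes without overlap is not given here. For Col3a1 and Col15a1 the cells libraries stayed above all sham libraries, and for Col4a2 they overlapped sham.

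The call on Col15a1 was lost without ligation replicate 3 (adjusted p = 0.0775), cells replicate 1 (0.0505) or cells replicate 2 (0.0605, edgeR). The number that fell was 7 without ligation replicate 1, the least deeply sequenced library, where Col1a1, Col4a1, Col5a1 and Col6a2 were added. Col4a1 was near the threshold, with a log2 fold change of -0.14 and an adjusted p of 0.0591 with edgeR, 0.0461 with DESeq2 and 0.0204 with limma-voom. The rarer Col27a1 was also near it, with a log2 fold change of -0.46 (95% interval -0.77 to -0.15, adjusted p = 0.0575, edgeR). Of the other abundant chains, none of which passed, Col6a2, Col8a1, Col5a1 and Col1a1 had 95% intervals of cells minus ligation wholly below 0 on the log2 scale, at -0.31 to -0.0428, -0.30 to -0.0221, -0.29 to -0.0177 and -0.24 to -0.00306 (adjusted p from 0.0901 to 0.206, edgeR). The intervals spanned 0 for Col6a1 (-0.24 to 0.00397), Col1a2 (-0.15 to 0.03), Col5a2 (-0.14 to 0.09) and Col14a1 (-0.17 to 0.13). They lay wholly above 0 for Col6a3 (0.0209 to 0.31, adjusted p = 0.152) and the rarer Col4a6 (0.0858 to 0.92, adjusted p = 0.128, edgeR for both), which did not pass either. Col6a5 had a log2 fold change of 0.19 with an interval of -0.03 to 0.41 (adjusted p = 0.287, edgeR).

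Against sham, the cells group had 22 collagen genes higher and 1 lower (edgeR, adjusted p under 0.05), where 21.0% of all genes tested were higher and 20.0% lower. This comparison uses the same sham libraries as ligation against sham. Its higher genes also include Col11a1, Col6a5 and Col8a2, which did not pass the filter through sham. The class counts were 6 of 9 fibrillar, 4 of 6 type IV, 3 of 4 FACIT and 9 of 13 other genes higher. Col4a1 had a log2 fold change of 0.01 (95% interval -0.08 to 0.10, adjusted p = 0.882) and Col4a2 one of -0.02 (-0.13 to 0.09, adjusted p = 0.780, edgeR for both). Scaled by library totals instead of TMM, the same differences were 0.17 for Col4a1 (adjusted p = 0.00678) and 0.14 for Col4a2 (adjusted p = 0.0490, edgeR). Col4a4 (log2 fold change 0.41, adjusted p = 0.0112) and Col6a3 (0.22, adjusted p = 0.0150, edgeR for both) were higher than sham, and neither passed with DESeq2. Both calls also rested on single libraries: that on Col4a4 was lost without sham replicate 1 or cells replicate 3, and that on Col6a3 without sham replicate 3 or cells replicate 2.

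Other genes of collagen assembly, turnover and sensing were followed as 4 lists, whose counts stand beside the shares of all genes tested: 20.1% rose and 18.0% fell from sham to ligation, 4.19% and 5.69% did so from ligation to cells, and 21.0% and 20.0% from sham to cells. These shares are for edgeR at an adjusted p under 0.05, and none is given for an unadjusted p. Of 19 tested genes for chain synthesis and folding, 10 rose and 2 fell in ligation against sham, with a median log2 fold change of 0.27. Over 20 other settings the number that rose ran from 6 to 15 and the number that fell from 1 to 3, with 8 and 1 for DESeq2. P3h2, a prolyl 3-hydroxylase, rose by 1.57, Plod2, which hydroxylates lysines of the telopeptides, by 0.67 and P4ha1, a subunit of prolyl 4-hydroxylase, by 0.61, while Colgalt2, a collagen galactosyltransferase, fell by 0.51 (adjusted p = 1.24e-06, 3.94e-06, 1.81e-07 and 0.00177, edgeR). Against ligation, the cells group had 0 genes of this list called in either direction by edgeR, DESeq2 or limma-voom, and at an unadjusted p under 0.05 there were 1 higher and 2 lower. Against sham, 8 were higher and 3 lower in the cells group, with 5 to 13 higher and 0 to 3 lower over the other settings and 6 and 1 for DESeq2.

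Of 13 genes for processing and cross-linking, 10 rose and 1 fell after ligation, with a median log2 fold change of 0.59. Lox, a lysyl oxidase that starts cross-links, was at 16.5 ± 1.84 CPM in sham, 55.1 ± 1.68 in ligation and 46.5 ± 2.45 in cells, and rose by 1.74 ± 0.0943 on the log2 scale (adjusted p = 8.95e-12, edgeR). Its relatives Loxl3 and Loxl4 rose by 1.61 and 1.63, and the propeptidase genes Tll1, Adamts2 and Bmp1 rose by 2.19, 1.19 and 0.59 (adjusted p from 9.99e-12 to 0.00139, edgeR). Sham reads were low for Tll1 (7, 4 and 6) and Loxl4 (5, 15 and 7). Both passed the filter through the ligation and cells libraries and not through sham, so their calls are no independent support. In cells against ligation 1 gene of the list fell: Pcolce, an enhancer of C-propeptide removal, by 0.31 (adjusted p = 0.00309, edgeR). Other settings called 1 to 4 lower, limma-voom 3, and 5 were lower at an unadjusted p under 0.05. In cells against sham 10 were higher and 1 lower.

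All 8 tested genes of the list for collagen uptake and breakdown passed in ligation against sham, 7 higher and 1 lower, with 6 and 0 for DESeq2. The list also holds the Timp genes, inhibitors of metalloproteinases. All of these rose, so the 7 are not a count of breakdown genes alone. Timp1, an inhibitor of metalloproteinases, was at 11.1 ± 1.19 CPM in sham, 59.6 ± 5.30 in ligation and 40.3 ± 0.656 in cells. It rose by 2.43 ± 0.105 after ligation (adjusted p = 2.31e-13) and fell by 0.57 ± 0.0843 from ligation to cells (adjusted p = 0.000102, edgeR for both). Timp2, Mmp2 and Mmp14 rose by 1.0, 0.85 and 0.55 after ligation. Ctsk, a collagen-degrading cathepsin, fell by 1.13 from low counts (adjusted p = 0.0159), and that call was lost in 6 of 20 other settings: with DESeq2, with the libraries of a shared header stem summed, and without sham replicate 1, sham replicate 2, ligation replicate 2 or ligation replicate 3. Mmp9, a gelatinase, rose by 1.29 after ligation (adjusted p = 0.0121, edgeR). It had 12, 6 and 12 reads in sham, 15, 28 and 39 in ligation and 1, 3 and 0 in cells, and was lower in cells than in ligation (adjusted p = 2.11e-05, edgeR). Mmp9 passed the filter only with the ligation libraries, where it was high, so its calls are no independent support. In cells against sham 6 genes of the list were higher and 2 lower, with 4 and 2 for DESeq2.

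Among 8 tested collagen receptors 6 rose and 1 fell in ligation against sham. Ddr1, a receptor tyrosine kinase for collagen, rose by 1.09 ± 0.0945 (adjusted p = 1.02e-08), the integrin chains Itga2, Itga11 and Itgb1 by 0.96, 0.87 and 0.49, Lair1, an inhibitory collagen receptor of leukocytes, by 0.73, and Itga1 fell by 0.39 (adjusted p = 2.71e-05, edgeR for all). Only 3 of this list rose with DESeq2. Against ligation, cells had Lair1 lower by a log2 fold change of -2.09 (adjusted p = 7.70e-05, edgeR), while Itgb1, which did not pass with edgeR, was called higher by DESeq2 and limma-voom. Against sham, 4 were higher and 2 lower in cells.

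Marker genes of the cell types that make or border collagen moved with the groups, and in bulk tissue fewer cells of a type and less RNA per cell cannot be told apart. The marker counts that follow stand beside the same shares of all genes tested, 20.1% higher and 18.0% lower in ligation than in sham and 4.19% and 5.69% in cells than in ligation, so 1 or 2 calls in a list this short say little. Of 7 fibroblast markers 3 rose and 2 fell in ligation against sham, and their summed level was 3677 to 3729 CPM in sham, 3729 to 3931 in ligation and 3854 to 3953 in cells. The count of 2 lower was 0 or 1 in 14 of 20 other settings, and Pdgfra, a fibroblast receptor, had a log2 fold change of -0.20 (adjusted p = 0.0490, edgeR). Of 6 activated-fibroblast markers 4 rose and 1 fell, and their sum was 467 to 497 CPM in sham, 758 to 773 in ligation and 704 to 743 in cells. Postn, a matrix protein of activated fibroblasts, rose by 2.34 ± 0.0600 (adjusted p = 4.27e-17), while Acta2, smooth-muscle actin, fell by 0.43 ± 0.0470 (adjusted p = 2.76e-07, edgeR for both). In cells against ligation Postn fell by 0.25 (adjusted p = 0.00374, edgeR), Acta2 rose by 0.15 (adjusted p = 0.0422, edgeR, a call lost in 12 of 20 other settings), and 0 of 7 fibroblast markers passed (1 higher at an unadjusted p under 0.05, and 0 with DESeq2 and limma-voom). The part of these markers in the collagen differences was not tested.

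Beside the type IV genes, all 6 endothelial markers and 4 of 5 tested pericyte and smooth-muscle markers fell after ligation. Endothelial markers summed to 3329 to 3420 CPM in sham, 2171 to 2208 in ligation and 2293 to 2418 in cells, with Pecam1 lower by a log2 fold change of -0.36 (adjusted p = 4.81e-06, edgeR). Pericyte and smooth-muscle markers summed to 1431 to 1475, 1001 to 1029 and 976 to 1014 CPM, with Rgs5 lower by -0.56 (adjusted p = 2.66e-09, edgeR). Of 6 cardiomyocyte markers 1 rose and 4 fell, Myh6 by 0.35 (adjusted p = 2.17e-08, edgeR), and the sums were 44328 to 45893, 34113 to 35747 and 33153 to 33916 CPM. In cells against ligation 1 endothelial marker rose, and 1 pericyte and smooth-muscle marker (Kcnj8) and 1 cardiomyocyte marker (Tnnt2) fell, both named here after their values were seen. DESeq2 called neither, and the number of cardiomyocyte markers that fell ran from 0 to 4 over 20 other settings. The endothelial, mural and cardiomyocyte sums moved opposite to Col4a1 and Col4a2 in ligation against sham, and their part in those values was not tested.

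Macrophage, mesothelial and chondrocyte markers also differed between the groups. Of 6 macrophage markers 5 rose in ligation against sham and all 6 fell in cells against ligation, and 5 were lower in cells than in sham, with sums of 547 to 596 CPM in sham, 1018 to 1059 in ligation and 417 to 438 in cells. All 5 mesothelial markers rose after ligation and 3 fell in cells against ligation, with sums of 32.1 to 42.9, 212 to 249 and 170 to 175 CPM. Of 4 tested chondrocyte markers 3 rose and 1 fell after ligation, with sums of 23.7 to 29.5, 275 to 294 and 268 to 274 CPM. Matn3, a cartilage matrix protein, had 0 reads in all sham and ligation libraries, and Comp, a matrix protein that binds fibrillar collagens, was at 16.4 ± 1.75 CPM in sham, 267 ± 9.63 in ligation and 253 ± 4.09 in cells, the largest part of the sum in each group. Schwann markers summed to 16.3 to 21.9, 24.6 to 27.7 and 53.0 to 62.7 CPM, with 1 of 4 higher in ligation than in sham and 1 of 4 higher in cells than in ligation. Fast skeletal muscle markers summed to at most 2.54 CPM in sham, 7.38 to 9.80 in ligation and at most 1.58 in cells, with both tested genes higher in ligation than in sham and lower in cells. Keratinocyte markers summed to 6.92 to 7.83, 6.66 to 8.74 and 9.08 to 10.4 CPM, with 1 of 2 tested genes higher in ligation than in sham and Krt5 at 0 in every library. The gene called, Krt14, had 0 reads in every sham library and passed the filter only through the other groups. Its call is no independent support. The part of these lists in the collagen differences was not tested.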

How the data were processed

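The authors deposited un-normalized counts of reads for each gene, in 1 file a library. The labels' protocols name TRIzol for the extraction of total RNA and the NEBNext Ultra kit for library preparation. The genome build was mm10 per the submitters' processing notes; the aligner, the counter, its strand setting and the annotation release are not given in the sources used here. Rows that name no gene (ambiguous reads, 8.09% to 8.72% of a library, and reads in no feature, 4.14% to 4.91%) stayed out of library sizes and tests. Symbols were found for 53274 of 53465 gene IDs.

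Counts were fitted with edgeR 4.0.16 in R 4.3.3: filterByExpr, TMM scaling and the two-sided quasi-likelihood test on all 9 libraries with 3 group means and 6 residual degrees of freedom, Benjamini-Hochberg adjusted over 13825 genes. CPM are TMM-scaled. Lengths for values per kilobase and gene positions come from GENCODE M21 (GRCm38), promoter windows from RefSeq (GRCm38.p6). The fit was also run on simulated counts with known changes, drawn with a common spread for all genes, unlike the data. The simulation was redrawn after a first run, so its outcome is not quoted and nothing is drawn from it.

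Full values are given for Col1a1, Col1a2, Col3a1, Col4a1 and Col4a2, the 3 genes of each class with the highest mean CPM, and any collagen gene past 0.05 with a log2 fold change of at least 1. From other lists at most 6 genes are named in a comparison, those with the largest changes past 0.05, plus Pdgfra, Postn, Acta2, Pecam1, Rgs5 and Myh6, and defining markers without reads. The gene set, classes, lists and tests were chosen with earlier results of these data known. Alternatives were other scalings and filters, DESeq2 1.42.0, limma-voom (limma 3.58.1), the replicate block, and leaving out each library.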

Additional observations from a re-analysis of the deposited data

How the results depend on the processing

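The collagen counts of ligation against sham (23 higher, 1 lower) and cells against sham (22 and 1) stayed within 21 to 26 and at 1 under every alternative run. The number lower in cells against ligation, 3, was 5 with library totals as scaling, 5 with no filter on low counts and 5 with limma-voom, where Col27a1 and Col4a1 were added, and 2 to 7 when single libraries were left out. Library totals moved the median gene by 0.19, -0.03 and 0.16 on the log2 scale for ligation minus sham, cells minus ligation and cells minus sham, and the share of called genes that were higher from 52.7% to 78.7%, from 42.4% to 32% and from 51.2% to 73.1%. In a fit with the replicate block, although the samples share only a number (correlations of deviations from -0.12 to 0.14 over 9414 genes), the collagen calls were 24, 3 and 23 genes, all of them shared with the fit without it, and the calls over all genes were 5134, 1230 and 5511 in place of 5277, 1365 and 5661. Over all genes, fits without 1 library called 4482 to 5459, 951 to 1398 and 5055 to 5746. File headers of sham replicates 1 and 2, and of ligation replicates 2 and 3, share a name stem; their counts differed by more than sampling noise, and summing them, an alternative chosen after seeing the data, kept 23, 3 and 23 collagen calls and lost Col4a1 from ligation against sham (adjusted p = 0.112, edgeR). DESeq2 called 4095, 924 and 4389 genes in all.

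Signs changed for differences that had not passed the test with all libraries and TMM. For Col4a1 in cells against sham they became -0.00362 with upper-quartile scaling, -0.00719 without mitochondrially encoded genes, -0.0238 without sham replicate 1, -0.00671 without ligation replicate 3, -0.00429 without cells replicate 3 (fits without 1 library reached 0.0375) and -0.0108 with the stems summed. For Col4a2 they became 0.138 with library totals, 0.0240 without sham replicate 2 and 0.00485 without cells replicate 2 (lowest without 1 library -0.0506). In cells against ligation, Col11a1 was at -0.16 without ligation replicate 2 and at -0.16 without cells replicate 1 (highest 0.49), Col14a1 at 0.0420 without ligation replicate 1 and 0.00910 without cells replicate 2 (lowest -0.0805), and Col16a1 at 0.0270 without ligation replicate 3 and 0.00998 without cells replicate 2 (lowest -0.11). The log2 ratio of Col4a1 to Col1a1 in cells against ligation, -0.02, ran from -0.0609 (without ligation replicate 3) to 0.00574 (without ligation replicate 1) and was 0.000513 without ligation replicate 2. The causes of these changes were not tested.

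Per kilobase, the fibrillar share was 31.7%, 44.3% and 44.3% in sham, ligation and cells and the type IV share 44.7%, 31.5% and 31%. Without Col3a1, the chain with the highest mean CPM over the 9 libraries, they were 26.7%, 37.2% and 38.1%, and 49.2%, 36.6% and 35.5%. Depth limits the statements on the 12 untested genes and on Col11a1, and the counting interval of Col11a1 and the floors cover counting error only, while intervals of log2 fold changes come from the edgeR fit and hold the spread between libraries.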
